A study of Mus musculus with 6 samples.

Results

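Transcripts of 7 genes that encode regulators of G protein signalling (RGS proteins) were measured in regulatory T cells (Tregs) of tumour-bearing mice: Rgs1, Rgs2, Rgs3, Rgs10, Rgs14, Rgs16 and Rgs19. They were taken by gene symbol from a list, as 7 of 37187 genes in the deposited tables, and all 7 passed the filter on low counts. The Tregs were sorted as CD4+, CD25+ and GITR+ cells from lymph nodes draining a B16.F10 melanoma, a transplantable mouse tumour line, on day 14 after 300000 tumour cells were placed under the skin. There were 3 libraries from Il33-/- mice on a C57BL6 background (KO, replicates 4, 5 and 6) and 3 from C57BL6 mice (WT, replicates 1, 2 and 3), and mice of both genotypes carried the tumour. IL-33 is an alarmin cytokine that Tregs read through the receptor ST2. The labels do not say that each library came from a separate animal, so the p-values below rest on library-to-library spread, which may be technical. Beyond the genotype Il33-/-, they do not say how the allele was made or in which cells the loss of IL-33 was checked.

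RGS proteins act on heterotrimeric G proteins, the relays inside the cell for chemokine, sphingosine-1-phosphate, adenosine and prostaglandin receptors. They speed up the hydrolysis of GTP by the alpha subunit and so shorten the signal of an engaged receptor. In lymphocytes they are known for setting how long a cell answers a chemokine, and several are induced when the cell is activated. Rgs1, Rgs2, Rgs3 and Rgs16 belong to one subfamily, whose members act on Gi and Gq alpha subunits, Rgs2 with a preference for Gq. Rgs10 and Rgs14 form part of another subfamily and act on Gi, and Rgs14 also carries a motif that binds inactive Gi. Rgs19, also called GAIP, belongs to another.

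Total counts per library ran from 18071928 to 21165063. Foxp3, which defines Tregs, stood at 790 to 857 CPM (read counts scaled by the library's effective total) in KO and at 719 to 803 CPM in WT libraries. Summed over 9 Treg markers, KO libraries held 5102 to 5367 CPM and WT libraries 4167 to 4820 CPM, and 3 of the 9 (Ctla4, Nrp1 and Ikzf4) rose. Over all genes tested, edgeR called 3.68% higher and 2.83% lower in KO. WT replicate 2 stood apart from the other WT libraries in its B cell transcript. Summed over 19 B cell markers, KO libraries held 1882, 2341 and 1795 CPM in replicates 4, 5 and 6, and WT libraries held 5789, 2972 and 4666 CPM in replicates 1, 2 and 3. The 19 include Cd74 and H2-Aa, which dendritic cells also express. In 15 of the 19 all KO libraries lay below all WT libraries, a pattern of 12.6% of all genes tested, and no marker was at 0. None of the 19 passed edgeR's test, 18 were lower at an unadjusted p under 0.05, and DESeq2 called 16 and limma-voom 8 lower. Of other cell types' markers, 2 of 8 dendritic cell (Ccl22 and Siglech), 1 of 6 plasma cell (Sdc1) and 1 of 6 NK cell markers (Klrk1) fell, with dendritic cell sums of 74.2 to 87.7 CPM in KO and 102.5 to 111.9 CPM in WT libraries. The plasma cell sums were 174.8 to 215.7 CPM in KO and 197.6 to 200.8 CPM in WT libraries, and the NK cell sums 24.0 to 28.1 CPM in KO and 27.8 to 32.3 CPM in WT libraries. A single marker each rose of 8 monocyte and macrophage (Cd68), 6 germinal centre B cell (Fas), 5 stromal (Pecam1) and 1 melanoma gene tested (Pmel), while Tyr, Tyrp1 and Dct of melanoma were at 0. The part of these cell types in the RGS differences was not tested. In bulk RNA, fewer cells of a type and less RNA per cell cannot be told apart.

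Of the 7 RGS genes, 5 rose in KO Tregs. Rgs16 and Rgs2 stood 2.41-fold and 2.28-fold higher than in WT, Rgs1 1.62-fold, and Rgs3 and Rgs10 1.23-fold and 1.20-fold. Rgs14 and Rgs19 were 0.908 and 0.871 times the WT level and did not pass. Calls rest on the quasi-likelihood test of edgeR, adjusted by Benjamini-Hochberg over 13626 genes at a threshold of 0.05, which called 6.5% of all genes, 3.68% higher and 2.83% lower in KO. No RGS gene was called lower by edgeR, DESeq2 or limma-voom, although Rgs14 and Rgs19 were lower at an unadjusted p under 0.05. The KO and WT libraries did not overlap for any of the 7. In 5 genes all KO libraries lay above all WT libraries, a pattern of 13.7% of genes tested, and both others had all of them below, a pattern of 12.6%. The median log2 fold change was 0.30 over the 7 genes and 0.00 over all genes tested. The 7 genes were chosen with earlier results of these data known, so setting them beside all genes is a description and not a test.

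**Figure D1:**
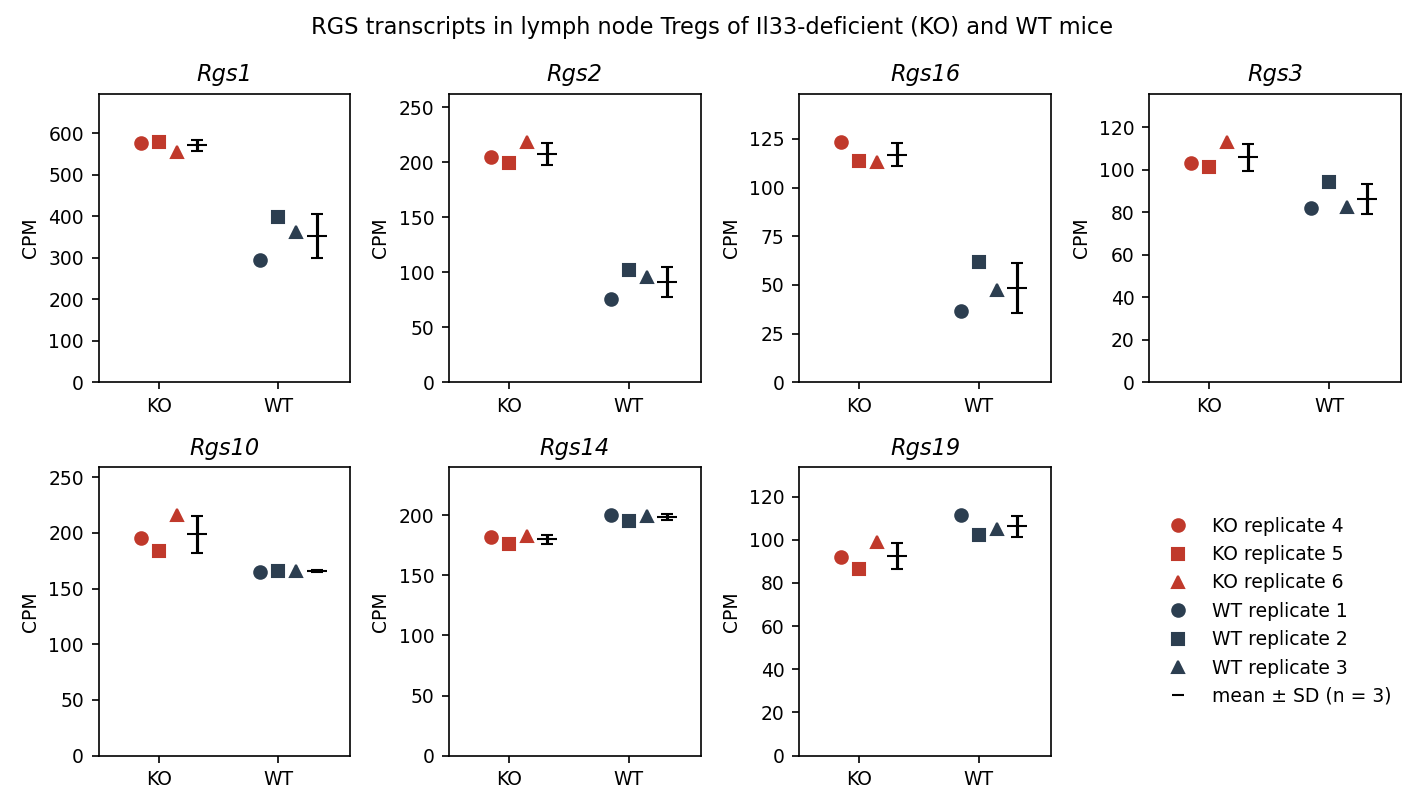
Level of each RGS gene in CPM (y axis from 0) by group, with 1 symbol per library and the mean and SD of 3 libraries beside it. Rgs1, Rgs2 and Rgs16 show the widest gaps, with WT replicate 2 nearest to the KO libraries, and for Rgs14 and Rgs19 the KO libraries lie below the WT libraries.

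Rgs2, which restrains Gq-coupled receptors and is also an early response gene of activated lymphocytes, lies on chromosome 1 from 143999338 to 144004161 on the minus strand of GRCm38 (ENSMUSG00000026360). It was measured at 204.9, 199.1 and 218.7 CPM in KO replicates 4, 5 and 6, against 75.8, 101.6 and 96.0 CPM in WT replicates 1, 2 and 3. Every KO library held more than the highest WT library, WT replicate 2. The log2 fold change was 1.19 (SE 0.10, 95% interval 0.96 to 1.41, edgeR adjusted p = 0.000252). Rgs2 passed in each of the 19 alternatives run, among them each library left out in turn and a fit adjusted for the B cell score (the mean log2 CPM of 17 B cell markers), where its log2 fold change was 0.83 (edgeR adjusted p = 0.0195).

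Rgs16, induced on T cell activation and a brake on Gi and Gq signals of chemokine receptors, lies on chromosome 1 from 153740349 to 153745468 on the plus strand (ENSMUSG00000026475). It had 123.6, 113.5 and 113.3 CPM in KO replicates 4, 5 and 6 and 36.5, 61.8 and 47.3 CPM in WT replicates 1, 2 and 3. The coefficient of variation was 5.02% among KO and 26.2% among WT libraries. Its log2 fold change of 1.27 had the widest error of the 7 (SE 0.20, 95% interval 0.76 to 1.77, edgeR adjusted p = 0.0292). The call was lost without KO replicate 4, 5 or 6 or WT replicate 3, where edgeR's adjusted p was 0.0982, 0.108, 0.104 and 0.107, and when adjusted for the B cell score (0.67, edgeR adjusted p = 0.203). The log2 fold change was 1.10 to 1.49 over the libraries left out, and DESeq2 and limma-voom called it higher with all libraries.

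Rgs1, which curbs the chemokine responses of B and T cells, lies on chromosome 1 from 144242296 to 144249242 on the minus strand (ENSMUSG00000026358), 238 kb from Rgs2. It had 575.7, 579.9 and 555.9 CPM in KO replicates 4, 5 and 6 and 295.5, 398.3 and 362.3 CPM in WT replicates 1, 2 and 3. The KO libraries differed by a coefficient of variation of 2.25% and the WT libraries by 14.8%. The log2 fold change was 0.70 (SE 0.10, 95% interval 0.48 to 0.91, edgeR adjusted p = 0.00444). It passed with any 1 library left out, at an edgeR adjusted p of at most 0.0463, and did not pass when adjusted for the B cell score (0.40, edgeR adjusted p = 0.353). The B cell score was 4.55 to 5.26 in KO and 5.68 to 7.08 in WT libraries, so it separates the groups. A fit with that score therefore cannot fully tell it apart from genotype, and the SE of Rgs1 there was 0.14. This limit holds for every gene adjusted for the score.

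In WT libraries Rgs1, Rgs2 and Rgs16 had the same order, highest in replicate 2 and lowest in replicate 1, which is the reverse of the order of the B cell markers. Without WT replicates 1 and 3, the libraries with the most B cell transcript, the log2 fold changes were 0.52 for Rgs1, 1.03 for Rgs2 and 0.92 for Rgs16, and all 3 passed (edgeR adjusted p = 0.00527, 7.51e-06 and 3.93e-05). That fit assumes the lone WT library to have the spread of the KO group.

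**Figure D2:**
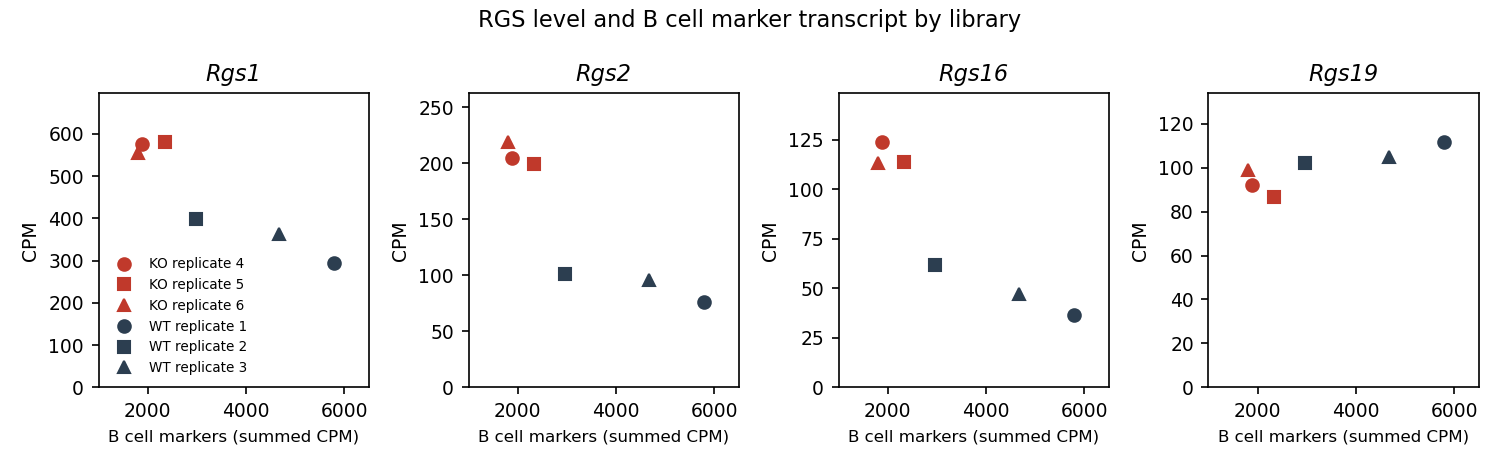
Level of 4 RGS genes (CPM, y axis) against the summed CPM of 19 B cell markers (x axis), 1 symbol per library. Among WT libraries Rgs1, Rgs2 and Rgs16 are highest in replicate 2, which has the lowest B cell marker sum of that group, and Rgs19 is lowest there.

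The proximal upstream sequences are shown for Rgs2 and Rgs16, the genes with the largest rises, to set their letters side by side. Each run is the 250 bases before the transcription start in RefSeq (GRCm38.p6), read 5′ to 3′ on the gene's strand, and capitals mark TGACG or its reverse complement, the core of the cAMP response element.
Rgs2, chr1:144004150-144004399, minus strand: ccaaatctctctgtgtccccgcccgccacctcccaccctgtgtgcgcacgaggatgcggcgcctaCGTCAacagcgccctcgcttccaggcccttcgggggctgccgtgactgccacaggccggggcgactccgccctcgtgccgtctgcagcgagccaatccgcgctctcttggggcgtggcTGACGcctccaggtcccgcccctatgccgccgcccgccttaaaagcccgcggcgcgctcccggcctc
Rgs16, chr1:153740103-153740352, plus strand: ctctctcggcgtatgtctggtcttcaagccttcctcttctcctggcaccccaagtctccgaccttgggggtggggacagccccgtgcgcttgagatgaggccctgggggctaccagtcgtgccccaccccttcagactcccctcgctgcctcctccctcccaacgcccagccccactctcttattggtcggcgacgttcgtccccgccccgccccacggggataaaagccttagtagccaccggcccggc

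The window of Rgs2 held TGACG at 67 bases before the start and its reverse complement at 185 bases before it, and that of Rgs16 held neither. Of 32851 RefSeq promoter windows (250 bases before and 50 after the start), 20.8% held TGACG on either strand. The full element TGACGTCA and the AP-1 motif TGANTCA were in none of the windows of Rgs2, Rgs3, Rgs10, Rgs16 and Rgs19, and were in 1.79% and 7.81% of all windows. No window was available for Rgs1 and Rgs14. GGAAA, the core letters of NFAT sites, was in 61.3% of all windows and in neither the Rgs2 nor the Rgs16 window. CACGTG (7.15% of all windows) occurred near a start of Rgs19 and TATAAA (13.6%) in both windows of Rgs3. TGACG is contained in TGACGTCA, and a match of letters is not a measured binding site.

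Rgs3, a larger member of the first subfamily with several isoforms, lies on chromosome 4 from 62559847 to 62704001 on the plus strand (ENSMUSG00000059810). It had 103.3, 101.1 and 113.2 CPM in KO replicates 4, 5 and 6, against 82.2, 94.4 and 82.2 CPM in WT replicates 1, 2 and 3. The lowest KO library and the highest WT library lay close together, and the log2 fold change was 0.30 (SE 0.07, edgeR adjusted p = 0.0248). Rgs10, which acts on Gi and is abundant in lymphoid and myeloid cells, lies on chromosome 7 from 128373621 to 128418758 on the minus strand (ENSMUSG00000030844). It had 195.7, 183.9 and 215.9 CPM in KO replicates 4, 5 and 6 and 164.9, 165.9 and 166.2 CPM in WT replicates 1, 2 and 3. Its WT libraries differed by a coefficient of variation of 0.400%, against 8.15% among KO libraries. With 3003 to 3475 reads per WT library, counting error alone is expected to give more than 0.400%, so that value understates the WT spread. The log2 fold change was 0.26 (SE 0.06, edgeR adjusted p = 0.0261).

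Both modest rises lost their call without KO replicate 6, WT replicate 1 or WT replicate 3, where edgeR's adjusted p was 0.0994, 0.102 and 0.128 for Rgs3 and 0.0857, 0.0812 and 0.106 for Rgs10. Adjusted for the B cell score, the log2 fold changes were 0.03 for Rgs3 and 0.15 for Rgs10 (edgeR adjusted p = 0.969 and 0.767). Scaled to the counts of 12 T lineage genes, an alternative chosen after seeing the data, they were 0.20 and 0.16 (edgeR adjusted p = 0.0874 and 0.149). Those 12 genes summed to 5559 to 5930 CPM in KO and 5202 to 5570 CPM in WT libraries, and Cd28 among them rose. The number of RGS genes called higher was 4 without KO replicate 4 or KO replicate 5, 2 without KO replicate 6, 3 without WT replicate 1, 5 without WT replicate 2 and 2 without WT replicate 3. It was 1, Rgs2 alone, when adjusted for the B cell score, and 3 without WT replicates 1 and 3.

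Rgs14, a scaffold that also binds Ras and Rap GTPases, lies on chromosome 13 from 55369732 to 55384687 on the plus strand (ENSMUSG00000052087). It had 181.5, 175.8 and 182.9 CPM in KO replicates 4, 5 and 6, against 200.1, 195.5 and 199.6 CPM in WT replicates 1, 2 and 3, with no overlap. The log2 fold change was -0.14, the nearest to 0 of the 7 genes (SE 0.05, 95% interval -0.25 to -0.03, edgeR adjusted p = 0.132). Rgs19, which acts on Gi and Gz, lies on chromosome 2 from 181688419 to 181693977 on the minus strand (ENSMUSG00000002458). It had 91.9, 86.6 and 99.0 CPM in KO replicates 4, 5 and 6 and 111.4, 102.3 and 104.9 CPM in WT replicates 1, 2 and 3. The log2 fold change of Rgs19 was -0.20 (SE 0.06, 95% interval -0.34 to -0.06, edgeR adjusted p = 0.0879). No library left out brought either past the threshold. Scaled to T lineage counts, Rgs14 had -0.24 and Rgs19 -0.30, and both passed (edgeR adjusted p = 0.0450 and 0.0286). That scaling called 26.3% of its calls over all genes higher in KO, against 56.5% with the TMM scaling used elsewhere, and moved the median of all genes to -0.10. In WT libraries both genes were lowest in replicate 2, where B cell transcript was also lowest.

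**Figure D3:**
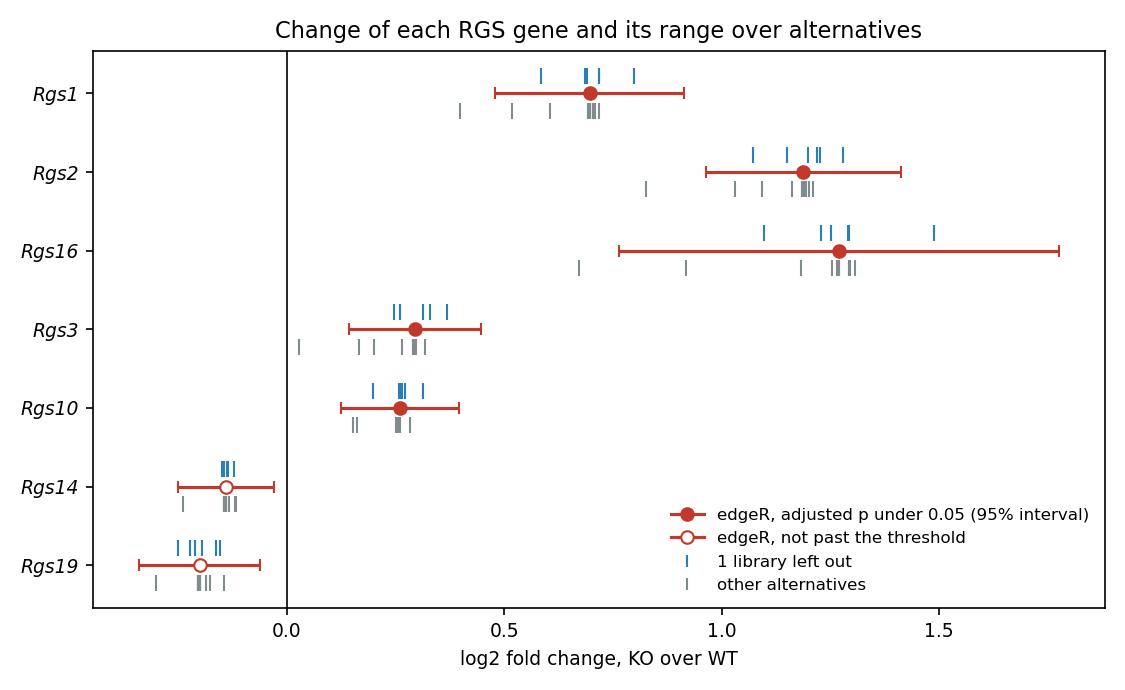
Log2 fold change (x axis, KO over WT) of each RGS gene in edgeR with its 95% interval, filled where the adjusted p was under 0.05, with ticks for the value with 1 library left out (above) and under the other alternatives (below). Rgs2 and Rgs16 lie between 0.67 and 1.49 under all alternatives, and no gene changes sign.

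Levels were compared between genes per transcript length, in the deposited FPKM. In KO libraries Rgs1 led with 148.1 ± 3.89 FPKM (SD, n = 3), followed by Rgs10 with 115.3 ± 8.96, Rgs14 with 71.9 ± 1.31, Rgs2 with 56.9 ± 2.53, Rgs16 with 49.6 ± 2.58, Rgs19 with 41.2 ± 2.63 and Rgs3 with 10.7 ± 0.608 FPKM. No neighbours in this order overlapped between their KO libraries. In WT libraries Rgs10 had 96.5 ± 0.432 FPKM, Rgs1 91.6 ± 13.7, Rgs14 79.4 ± 0.877, Rgs19 47.4 ± 2.07, Rgs2 25.04 ± 3.74, Rgs16 20.7 ± 5.45 and Rgs3 8.76 ± 0.732 FPKM. There the ranges of Rgs10 and Rgs1, of Rgs1 and Rgs14, and of Rgs2 and Rgs16 overlapped. Within libraries, Rgs1 stood above Rgs10 in WT replicate 2 alone and above Rgs14 in WT replicates 2 and 3, so neither order held in every WT library. Rgs2 stood above Rgs16 in each WT library, at 20.8 against 15.5 FPKM in replicate 1, 27.96 against 26.4 FPKM in replicate 2 and 26.3 against 20.1 FPKM in replicate 3. Rgs2 and Rgs16 stood above Rgs19 in every KO library and below it in every WT library.

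Within a library a ratio of 2 genes does not depend on the scaling. Rgs2 and Rgs16 lay higher in every KO library than in any WT library, and Rgs19 and Rgs14 lower. The ratios of Rgs2 to Rgs19 and of Rgs16 to Rgs14 therefore had to separate the groups, and add no further evidence. The FPKM of Rgs2 divided by that of Rgs19 was 1.37, 1.41 and 1.36 in KO replicates 4, 5 and 6, against 0.418, 0.611 and 0.563 in WT replicates 1, 2 and 3. For Rgs16 over Rgs14 it was 0.725, 0.687 and 0.660 in KO and 0.194, 0.337 and 0.252 in WT libraries. For Rgs1 over Rgs10 it was 1.31, 1.41 and 1.15 in KO and 0.800, 1.07 and 0.974 in WT libraries, with no overlap. The ratio of the 2 genes that did not pass, Rgs14 over Rgs19, averaged 1.75 ± 0.0844 in KO and 1.67 ± 0.0582 in WT libraries (SD, n = 3 each), and the libraries overlapped. Summed over the 7 genes, KO libraries held 480.4 to 504.1 FPKM and WT libraries 347.3 to 388.8 FPKM. The share of Rgs2 and Rgs16 in that sum was 11.5% and 10.1% in KO, against 6.76% and 5.55% in WT libraries, while the share of Rgs14 was 14.6% in KO and 21.5% in WT libraries.

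**Figure D4:**
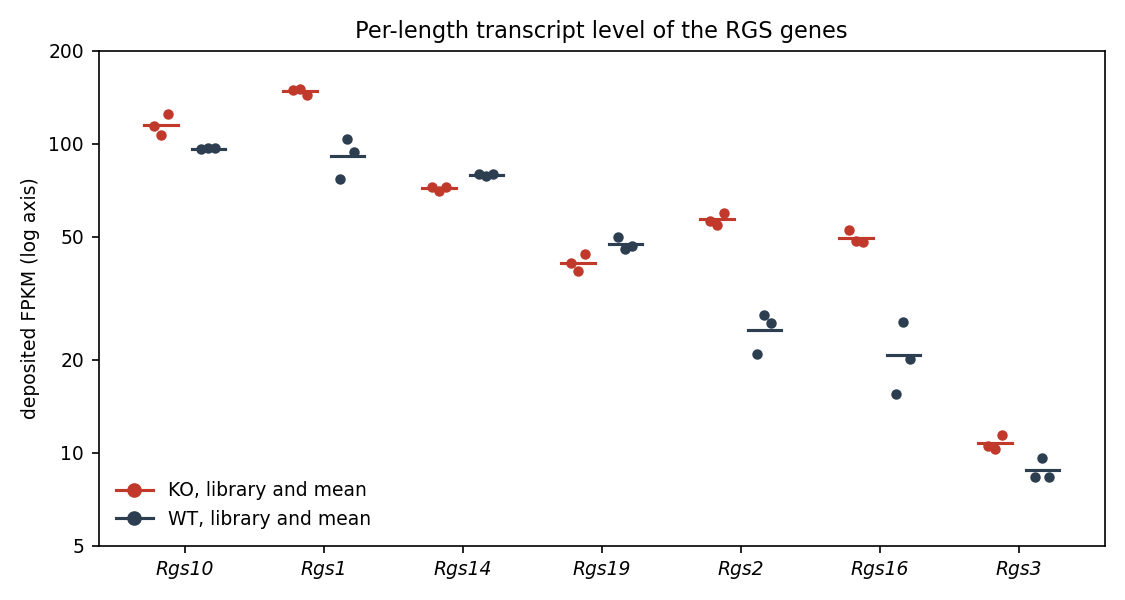
Deposited FPKM (log y axis) of each RGS gene, ordered by its WT mean, with 1 point per library and a line at the group mean. Rgs1 leads in KO at 148.1 FPKM, while in WT Rgs10 and Rgs1 share the top, and Rgs2 and Rgs16 change places with Rgs19 between the groups.

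Of 16 further genes with an Rgs symbol in the table, 4 were abundant enough to be tested in the main fit. Of these, 1 rose, against 3.68% of all genes tested. Rgs9, which ends the light response in photoreceptors and acts on dopamine signalling in the brain, had 19.3, 15.0 and 14.4 CPM in KO replicates 4, 5 and 6, against 8.97, 10.7 and 11.5 CPM in WT replicates 1, 2 and 3. Its log2 fold change was 0.65 (SE 0.14, edgeR adjusted p = 0.0162), and it did not pass without KO replicate 4 (0.0521) or WT replicate 1 (0.0660) or when adjusted for the B cell score (0.587). Rgs11 had -0.38 (SE 0.16), Rgs12 0.03 (SE 0.13) and Rgs5, a marker of pericytes, 0.83 (SE 0.59), and none of these passed (edgeR adjusted p = 0.202, 0.937 and 0.458). Rgs13 and Rgs18, which neighbour Rgs1 and Rgs2 on chromosome 1, did not pass the filter on low counts of the main fit. Rgs18 had 7, 8 and 2 reads in KO replicates 4, 5 and 6, against 45, 8 and 35 reads in WT replicates 1, 2 and 3, so that it was low in the WT library with the least B cell transcript too. Rgs13, a gene of germinal centre B cells, had 9, 6 and 0 reads in KO and 12, 1 and 10 reads in WT libraries.

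Counts for the G proteins on which RGS proteins act are read against the 6.5% called over all genes. Of 10 alpha subunit genes tested, 1 rose and none fell: Gna12 had 34.96 ± 0.479 CPM in KO and 28.5 ± 0.650 CPM in WT libraries (SD, n = 3 each), and its log2 fold change was 0.29 (edgeR adjusted p = 0.0318). It lost its call without KO replicate 4, KO replicate 5, KO replicate 6, WT replicate 1 or WT replicate 3, with edgeR adjusted p-values from 0.0694 to 0.120. Of 10 beta and gamma genes none passed edgeR, DESeq2 or limma-voom, and 0 had an unadjusted p under 0.05, with Gnb4 at -0.16 and Gnb2 at -0.09 as the lowest p-values. Of 10 genes for arrestins and other modulators none passed any of the 3 tools, and 2, Arrb1 at -0.18 and Gpsm3 at -0.22, were lower at an unadjusted p under 0.05. The medians of these lists were 0.04, -0.04 and -0.06. Arrb1 passed without KO replicate 4 (edgeR adjusted p = 0.0440).

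Of 31 trafficking receptor genes tested, 4 rose, 2 fell and 25 did not pass, with a median log2 fold change of -0.16. Cxcr4, the receptor for the retention chemokine CXCL12, had 198.5 ± 27.2 CPM in KO and 101.9 ± 9.47 CPM in WT libraries (SD, n = 3 each), which is 0.96 higher on the log2 scale (SE 0.10, edgeR adjusted p = 0.00138). P2ry10 rose by 0.44 and Ccr8 by 0.54 on the log2 scale, and S1pr4, a sphingosine-1-phosphate receptor, fell by 0.40, all with edgeR adjusted p-values of at most 0.00371. Of 8 Gs-coupled receptor genes 2 rose and 1 fell, among them Adora2a, an adenosine receptor, with a log2 fold change of 0.33 and Vipr1, a receptor for vasoactive intestinal peptide, with -0.61. Adora2a lost its call without KO replicate 5, KO replicate 6, WT replicate 1 or WT replicate 3, where edgeR's adjusted p reached 0.102.

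Of 22 effector genes tested 4 fell, none rose and 18 did not pass, with a median of -0.03. The share called lower over all genes tested was 2.83%. Neither DESeq2 nor limma-voom called one higher, and 1 was higher at an unadjusted p under 0.05. Pik3cg and Pik3r5, which encode the catalytic and a regulatory subunit of the phosphoinositide 3-kinase that G beta-gamma switches on, had log2 fold changes of -0.37 and -0.27. Adcy6, an adenylyl cyclase, had -0.48 and Rasgrp2, an activator of Rap1, -0.37. Rasgrp2 did not pass without KO replicate 4, KO replicate 5 or WT replicate 3 (edgeR adjusted p = 0.0867, 0.0912 and 0.0700), nor Pik3r5 without KO replicate 5, KO replicate 6 or WT replicate 3 (0.103, 0.0862 and 0.0713). Of 14 other genes with an RGS or RGS homology domain none rose by any of the 3 tools, 2 were higher at an unadjusted p under 0.05, and 2 fell: Snx25, a sorting nexin, by 0.43 and Grk3, a receptor kinase, by 0.77 on the log2 scale. Grk3 lost its call without KO replicate 5, KO replicate 6, WT replicate 1 or WT replicate 3, where edgeR's adjusted p reached 0.146, and neither DESeq2 (adjusted p = 0.0629) nor limma-voom (0.0524) called it. Adjusted for the B cell score, none of the genes named from these lists passed.

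**Figure D5:**
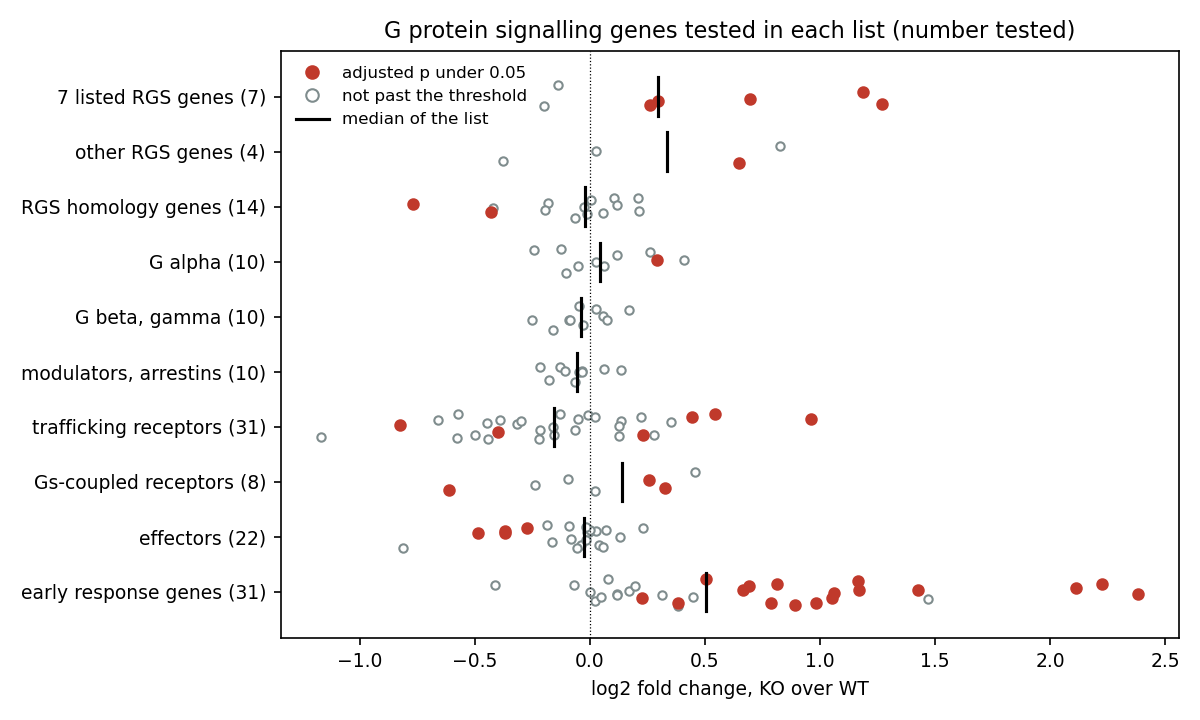
Log2 fold change (x axis, KO over WT) of each gene tested in the RGS list and in lists of G protein signalling and early response genes, with filled points for an adjusted p under 0.05 in edgeR and a bar at the list's median. The 7 RGS genes have a median of 0.30 and the early response genes of 0.50, while the G protein subunit lists lie at 0.04 and -0.04.

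Rgs1, Rgs2 and Rgs16 were also set beside genes with the most similar profile over the 6 libraries, measured as the root mean square difference of log2 CPM centred on each gene's mean, among 8784 protein-coding genes of at least 10 CPM. Nearest to Rgs1 were Pnrc1, Jun and Tob2, at differences of 0.0444, 0.0525 and 0.0637. Nearest to Rgs2 were Dusp1, Klf6 and Bag3 (0.0597, 0.0742 and 0.0897), and nearest to Rgs16 were Nfil3, Dusp1 and Bhlhe40 (0.0514, 0.0881 and 0.127). Dusp1, a phosphatase of MAP kinases, had 674.5, 656.1 and 670.7 CPM in KO replicates 4, 5 and 6 and 235.1, 351.1 and 302.6 CPM in WT replicates 1, 2 and 3, with WT replicate 1 lowest as for Rgs2 and Rgs16. Nearest to Rgs3 were Meis3, Fsd2 and Cyp4v3 (0.0370, 0.0376 and 0.0381), and nearest to Rgs10 were Ppp1r3f, Kcnn4 and Tm2d1 (0.0325, 0.0344 and 0.0368). Of these 6 only Kcnn4 passed edgeR's test (adjusted p = 0.0473). With 6 libraries in 2 groups, the difference between the groups is part of every such profile. The order among the WT libraries is also part of the profile by which these genes were picked, so a shared order follows from the choice.

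A list of 31 immediate early and stress genes, which cell isolation can also raise, was examined beside the RGS genes. Its counts stand against 3.68% called higher and 2.83% lower over all genes tested. Of the 31, 17 rose, none fell and 14 did not pass, with a median log2 fold change of 0.50, while DESeq2 called 19 higher and 1 lower, limma-voom 18 and 0, and 1 was lower at an unadjusted p under 0.05. Their CPM summed to 14696, 14400 and 14085 in KO replicates 4, 5 and 6, against 8178, 10213 and 9787 in WT replicates 1, 2 and 3. Cd69, an early activation antigen, had 307.5 ± 16.6 CPM in KO and 147.4 ± 19.0 CPM in WT libraries (SD, n = 3 each), and Klf6, Fos and Zfp36 rose by 1.17, 0.98 and 0.50 on the log2 scale. The part of sorting or handling in the RGS differences was not tested. Adjusted for the B cell score, 2 of the 31 passed, Cd69 and Klf6 (edgeR adjusted p = 0.0449 and 0.0195).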

How the data were processed

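RNA was sequenced in 6 libraries, 3 KO and 3 WT. GRCm38, STAR 2.4.2a, bcl2fastq and DESeq2 are named in the submitters' processing notes, while how reads were counted, with or without strand, is not given in the sources used. Raw counts by Ensembl gene were deposited, and the authors also gave FPKM and normalized counts (a signal) per symbol. The normalized counts equalled raw counts over 1 factor per library for 99.893% of 9335 genes, within 1e-06, and for all 7 members. Symbols and positions came from GENCODE M21 (35412 of 37187 IDs matched). The predicted genes Gm11209 and Gm15503 overlap Rgs3 and Rgs10, with 13 and 46 reads in KO and 2 and 26 in WT libraries.

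The count test was that of edgeR 4.0.16 (R 4.3.3) (filterByExpr, TMM, robust quasi-likelihood fit, two-sided) over all genes. CPM uses the TMM factors. Alternatives were DESeq2 1.42.0, limma-voom (limma 3.58.1), other scalings, filters and a threshold of 0.01, limma on log2 of FPKM plus 1 or 0.1 (at least 0.5 FPKM in 3 libraries) and of normalized count plus 1 (at least 10 in 3 libraries), each library left out, a B cell score added to the model, and leaving out WT replicates 1 and 3. In 5 simulated draws with 200 of 13626 genes changed, 19.2%, 61.6%, 80.4% and 92.8% of the changes of 1.25, 1.5, 2 and 4 times were recovered, with false calls making up 9.62%. Chi-square over degrees of freedom between libraries of a group ran from 5.16 to 14.6, so no library was a repeat sequencing of another in its group. That check cannot show whether libraries came from the same animal.

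The members, lists and alternatives were chosen with earlier results of these data known. Named were the 7 members, the other Rgs genes tested, up to 4 called genes per list by p (2 where none passed) and the 3 nearest profiles of each called member, with Rgs13 and Rgs18 as neighbours. Promoters came from RefSeq (GRCm38.p6). A planned alignment of the proteins was not made, and 1 gene that the naming rule selects is not reported here. Intervals and floors cover counting error or library spread only.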

Additional observations from a re-analysis of the deposited data

How the results depend on the processing

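No paired analysis was possible because the KO and WT libraries share no replicate number. No log2 fold change of the 7 RGS genes changed sign under any alternative run. Of the other genes named, Rgs12 (0.03) had -0.014 without KO replicate 5, -0.0011 without WT replicate 2 and -0.07 scaled to T lineage counts, and Foxp3 (0.15) had -0.04 when adjusted for the B cell score. Counts below are in the order RGS homology, G alpha, Gs-coupled receptors and effectors, unless named. Leaving out 1 library gave 367 to 1364 genes called, against 886 with all, 2 to 5 RGS genes higher, log2 fold changes of 0.25 to 0.37 for Rgs3, 0.20 to 0.31 for Rgs10 and 1.10 to 1.49 for Rgs16, and 1 to 5, 0 to 1, 1 to 5 and 2 to 4 list genes, with 0 to 2 other RGS genes, 0 to 1 modulators, 4 to 7 trafficking receptors and 9 to 17 early response genes. Adjusted for the B cell score, 38 genes and 1 RGS gene were called, with 0.40 for Rgs1, 0.028 for Rgs3, 0.15 for Rgs10 and 0.67 for Rgs16, and 0 in each list but 2 early response genes. Without WT replicates 1 and 3, 282 genes and 3 RGS genes were called, with 0.17 for Rgs3, 0.26 for Rgs10 and 0, 0, 0 and 1 list genes, and 0 other RGS genes. Scaled to T lineage counts, chosen after seeing the data, 3 RGS genes were higher and 2 lower, with 0.20 for Rgs3, 0.16 for Rgs10, -0.24 for Rgs14 and -0.30 for Rgs19, 4 RGS homology, 0 G alpha and 2 modulator genes. At a threshold of 0.01, 275 genes and 2 RGS genes were called, Rgs3 (0.30), Rgs10 (0.26) and Rgs16 (1.27) not among them, with 1, 0, 1 and 2 list genes, 0 other RGS and 8 early response genes. Limma on log2(FPKM + 1) called 295 genes and 3 RGS genes and on log2(FPKM + 0.1) 282 and 3, with 0.27 and 0.29 for Rgs3, 0.25 and 0.25 for Rgs10, and 1, 0, 1 and 2 list genes and 0 other RGS genes in both. With no filter, 1645 genes were called, 1 RGS gene lower (Rgs19 at -0.20), 5 RGS homology, 1 modulator, 11 trafficking, 5 Gs-coupled and 2 other RGS genes. DESeq2 called 2 other RGS genes, and limma-voom and limma on log2(normalized count + 1) 1 RGS homology gene each. Of the 2 other RGS genes called by DESeq2, only Rgs9 had passed the filter of the main fit. The same holds for the 2 called with no filter. The cause of these shifts was not tested, apart from the fewer libraries or stricter threshold by construction. The B cell score separates the KO from the WT libraries, which by construction widens the errors of the fit adjusted for it. For Rgs1 the SE was 0.14 there, against 0.10 in the main fit. The 3 libraries a group limit what can be said of the modest differences of Rgs3, Rgs10, Rgs14 and Rgs19. In the simulation 19.2% of 1.25-fold changes were recovered, with 200 of 13626 genes changed, drawn over all levels. The share recovered at the levels of these RGS genes was not simulated.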

Other observations

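Of the genes around Rgs1 and Rgs2 on chromosome 1, those tested within 1 Mb were Cdc73, B3galt2, Glrx2, Trove2 and Uchl5. None of these 5 passed edgeR's test, and their median log2 fold change was 0.08. Within 1 Mb of Rgs16, 9.49 Mb further along the chromosome, 1 of 15 genes tested rose and none fell, with a median of -0.08. The share called over all genes tested was 6.5%.

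By its deposited FPKM, Rgs1 stood above 97.9% of 11965 tested genes in KO and above 95.7% in WT libraries. Rgs2 stood above 91.8% in KO and above 78.2% in WT, and Rgs16 above 90.3% in KO and above 73.6% in WT libraries. Rgs14 stood above 94.0% in KO and above 94.8% in WT, and Rgs19 above 87.9% in KO and above 89.6% in WT libraries. Rgs10 stood above 96.9% in KO and above 96.1% in WT libraries. Rgs3 was the lowest, above 56.2% in KO and above 50.7% in WT libraries.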
